A study of Saccharomyces cerevisiae with 14 samples.

Results

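The mRNAs of the proteasome subunits were followed in RNA immunoprecipitates of 3 mRNA decay factors of *Saccharomyces cerevisiae*. The list held the 33 genes that encode the 20S core particle (*SCL1*, the *PRE* genes and the *PUP* genes) and the 19S regulatory particle (the *RPT* and *RPN* genes and *SEM1*). These genes were chosen by name and not by any measured value, though with earlier results of these data known. Of these, 32 had a row among the 5945 RNAs of the count table and 31 were among the 4921 RNAs that had enough counts to be tested. *PRE3* (YJL001W), which encodes one of the catalytic subunits, had 0 to 6 counts per library and was not tested, and *SEM1* (YDR363W-A) was not analysed here. In the study, Ccr4, Dhh1 or Puf5 carrying a myc epitope was immunoprecipitated from formaldehyde cross-linked cells of strain BY4741 grown in rich medium at 30°, and the RNA was sequenced (Ccr4 IP, Dhh1 IP and Puf5 IP, 3 libraries each). The same immunoprecipitation from cells without a tagged protein gave the UT IP (3 libraries), and RNA of untagged cells that had not been immunoprecipitated gave the UT input (2 libraries). No group had received a stress treatment. An RNA can be recovered in such an IP through another protein that is cross-linked to it, and the UT IP measures what the beads and antibody hold without the tag.

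The proteasome degrades proteins marked with ubiquitin. Its core is a barrel of alpha and beta rings whose beta subunits carry the peptidase sites, and the regulatory particle consists of a base, with a ring of Rpt ATPases that unfold the substrate, and a lid that removes the ubiquitin chain. The subunits are made in matched amounts, and the transcription factor Rpn4 drives most of their genes. Ccr4 is the main deadenylase of yeast and shortens poly(A) tails, Dhh1 is a DEAD-box helicase that represses translation and promotes decapping, and Puf5 is a Pumilio-family protein that binds sequence elements in 3′ UTRs and recruits the Ccr4-Not complex.

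The 14 libraries held 20376517 to 23943342 counts each, and rRNA made up 95.1% to 97.4% of them. The median proteasome mRNA had 101 to 199 counts in an IP library, and the median of all mRNAs in the count table was 32 to 98 counts. Shares of all RNAs tested, given below beside counts of proteasome mRNAs, are therefore not matched for counts. All mRNAs together took 2.18% ± 0.0058 of the counts of the UT IP (SD, n = 3), and 3.70% ± 0.333, 3.43% ± 0.357 and 3.07% ± 0.306 of those of the Ccr4, Dhh1 and Puf5 IPs. Because the whole mRNA pool was larger in the tagged IPs, a log2 enrichment calculated with library totals lay above 0 for most mRNAs, and the medians of gene groups are therefore given beside that of all mRNAs. Within the mRNA counts alone, the proteasome mRNAs took 0.798% ± 0.027 in the UT IP, then 0.785% ± 0.0569, 0.884% ± 0.0267 and 0.696% ± 0.0317 in the Ccr4, Dhh1 and Puf5 IPs, against 0.851% and 0.870% in the UT input libraries. The Dhh1 IP libraries lay above all UT IP libraries by this measure and the Puf5 IP libraries below all of them, whereas the Ccr4 IP libraries overlapped them.

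In each IP the median of the proteasome mRNAs lay below that of all mRNAs, both with library totals, which put it above the UT IP, and with TMM factors, which put it below. The median log2 enrichment of the 31 mRNAs was 0.73 in the Ccr4 IP, where the 4642 mRNAs tested had a median of 1.24. It was 0.81 in the Dhh1 IP, against 0.94 for all mRNAs, and 0.31 in the Puf5 IP, against 0.61. Relative to the median mRNA the proteasome mRNAs were thus at -0.50, -0.13 and -0.30. When libraries were scaled by TMM factors, which set the median mRNA at 0.13, 0.04 and 0.03, the medians turned negative (-0.41, -0.13 and -0.28) while the distances to the median mRNA were -0.54, -0.17 and -0.31. No test was made of the list as a whole.

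Counted one by one with edgeR's quasi-likelihood test, 4 of the 31 were enriched in the Ccr4 IP by the criteria of an FDR under 1% and a log2 over 1, against 57.8% of all RNAs tested. The Dhh1 IP had 7 enriched (37.4% of all RNAs) and the Puf5 IP 0 of 31 (17.6%), although 9 had an unadjusted p under 0.05 there and DESeq2 found 0 enriched too. Without the 2-fold criterion, 23, 26 and 3 proteasome mRNAs were above the UT IP in the Ccr4, Dhh1 and Puf5 IPs, where the background was 68.5%, 53.4% and 23.6%. This background includes RNAs with fewer counts, for which a difference of the same size is harder to call. Every library of the tagged IP lay above every UT IP library for 28, 30 and 13 of the 31, and for 77.9%, 74.5% and 49.1% of all RNAs. With TMM factors no proteasome mRNA was higher in any IP at an FDR under 1%, where 8.29%, 1.54% and 6.02% of RNAs were. These factors scale to the bulk of the RNAs, so higher and lower are then relative to the typical RNA. In the Ccr4 IP 5 were then lower (*RPT2*, *RPT3*, *RPT6*, *RPN2* and *PRE4*, background 12.4%), in the Puf5 IP 2 were (*RPT3* and *RPT5*, 4.25%), and in the Dhh1 IP none was (4.25%). These counts depended on the scaling as well: in the Ccr4 and Puf5 IPs 0 and 1 were lower with mRNA totals and with totals without rRNA, and 9 and 3 with DESeq2 (background 14.4% and 6.22%). The SD of the log2 values of the proteasome mRNAs was 0.25, 0.25 and 0.29 in the Ccr4, Dhh1 and Puf5 IPs, and that of all mRNAs 0.71, 0.51 and 0.63. The SEs of single proteasome mRNAs were of a like size, 0.16 (*RPN2*) to 0.36 (*RPN13*) in the Ccr4 IP. All mRNAs include many with fewer counts, so the SDs are not matched for counts.

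**Figure D1:**
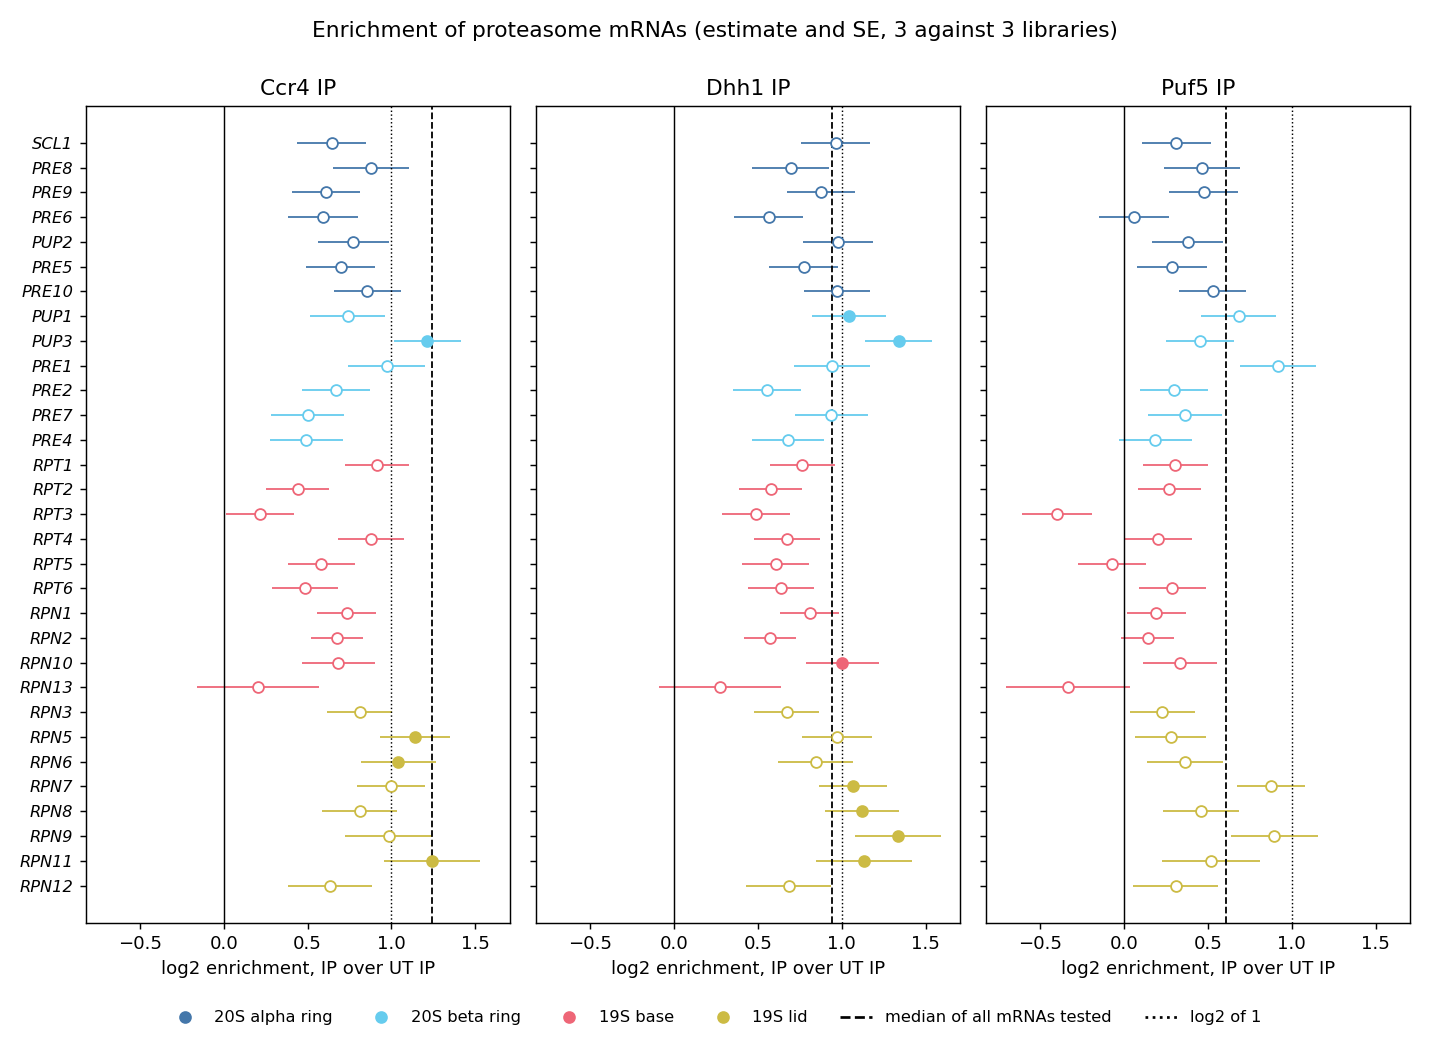
Log2 enrichment over the UT IP (x axis) of the 31 proteasome mRNAs tested (y axis) in each IP, as the estimate with its SE from 3 against 3 libraries scaled by library totals. Filled points passed an FDR of 1% and a log2 of 1, the dashed line is the median of all mRNAs and the dotted line a log2 of 1; most points lie left of the dashed line, and with TMM factors the medians of 0.73, 0.81 and 0.31 became -0.41, -0.13 and -0.28.

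The 4 mRNAs enriched in the Ccr4 IP were those of 3 lid subunits, *RPN11*, *RPN5* and *RPN6*, and of the beta ring subunit *PUP3*. *RPN11* (YFR004W), which encodes the deubiquitinase of the lid, had 67, 48 and 53 counts in UT IP replicates 1 to 3 and 147, 173 and 68 in the Ccr4 IP. The third Ccr4 IP library was well below the other two and only just above the highest UT IP library. The log2 enrichment of *RPN11* was 1.24 ± 0.29 (SE), with an edgeR adjusted p of 0.000356. *PUP3* (YER094C) had 79, 75 and 95 counts in the UT IP and 219, 185 and 162 in the Ccr4 IP, without overlap. Its log2 enrichment was 1.21 ± 0.20 (edgeR adjusted p = 7.84e-06). *RPN5* (YDL147W), a scaffold subunit of the lid, had 155, 126 and 128 counts in the UT IP and 385, 278 and 217 in the Ccr4 IP, again without overlap, and a log2 enrichment of 1.14 ± 0.21 (edgeR adjusted p = 3.07e-05). *RPN6* followed at 1.04 ± 0.22. Even *RPN11*, the highest of the list, was at the level of the median mRNA in this IP. The count of 4 became 8 without Ccr4 IP replicate 3 or without UT IP replicate 1 and 7 without UT IP replicate 3. It was 3 without Ccr4 IP replicate 1, where *RPN5* (0.92) and *RPN6* were lost. Without Ccr4 IP replicate 2 it was 5, but *RPN11* (0.95) was lost. Of the 4, *PUP3* alone stayed enriched whichever Ccr4 IP library was left out. None of the 4 was enriched with TMM factors, with which *RPN5* lay at -0.014.

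At the other end of the Ccr4 IP were *RPN13*, *RPT3* and *RPT2*. *RPT2* (YDL007W), an ATPase of the base, had 181, 131 and 165 counts in the UT IP and 217, 212 and 200 in the Ccr4 IP. The Ccr4 IP libraries were all higher, but the log2 of 0.44 ± 0.19 did not pass the threshold (edgeR adjusted p = 0.0337). *RPT3* (YDR394W), another of the ATPases, had 162, 137 and 133 counts in the UT IP and 176, 193 and 119 in the Ccr4 IP, so that the groups overlapped, with a log2 of 0.22 ± 0.20. Beyond *RPN13*, *RPT3* and *RPT2*, the mRNAs that missed an FDR of 1% in the Ccr4 IP were *PRE6*, *PRE7*, *PRE4*, *RPT6* and *RPN12*, with log2 values of 0.48 to 0.63.

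The value of *RPN13* (YLR421C), whose product is a ubiquitin receptor, rested on 1 library. The mRNA had 45, 49 and 225 counts in UT IP replicates 1 to 3, against 80 and 69 in the UT input and 73 to 140 in the 9 tagged IP libraries. In UT IP replicate 3, 193 of the counts were in the 3′ segment of the transcript, where the other UT IP libraries had 13 and 11, while the 5′ segment had 20, 22 and 22 counts in the 3 libraries. With all libraries its log2 enrichment was 0.21 ± 0.36, 0.28 ± 0.36 and -0.33 ± 0.37 in the Ccr4, Dhh1 and Puf5 IPs. Without UT IP replicate 3 the values were 1.37, 1.44 and 0.83, and the edgeR adjusted p fell from 0.594, 0.475 and 0.475 to 8.13e-05, 0.000151 and 0.0169. Its place as the lowest of the list in the Ccr4 and Dhh1 IPs therefore came from that library.

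In the Dhh1 IP the enriched mRNAs were *PUP3*, *RPN9*, *RPN11*, *RPN8*, *RPN7*, *PUP1* and *RPN10*. *PUP3* again led, with 204, 219 and 182 counts, all above every UT IP library, and a log2 enrichment of 1.34 ± 0.20 (edgeR adjusted p = 1.07e-05). *RPN9* (YDR427W), a lid subunit, had 61, 47 and 60 counts in the UT IP and 155, 108 and 144 in the Dhh1 IP, and the groups did not overlap. Its log2 enrichment was 1.34 ± 0.26 (edgeR adjusted p = 0.000116). *RPN11* had 141, 112 and 101 counts in the Dhh1 IP, all above the UT IP, and a log2 enrichment of 1.13 ± 0.29 (edgeR adjusted p = 0.00134). The others were *RPN8*, the partner of the Rpn11 deubiquitinase, at 1.12, *RPN7* at 1.07, *PUP1*, which encodes a catalytic beta subunit, at 1.04 and the ubiquitin receptor *RPN10* at 1.00, on the threshold. The number enriched was 4 without Dhh1 IP replicate 1 and 11 without either Dhh1 IP replicate 2 or UT IP replicate 1. The number above the UT IP at an FDR under 1% fell from 26 to 17 without Dhh1 IP replicate 1.

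The lowest mRNAs of the Dhh1 IP after *RPN13* were *RPT3* and *PRE2*. *RPT3* had 221, 187 and 172 counts there, all above the UT IP, with a log2 of 0.49 ± 0.20 (edgeR adjusted p = 0.0312). *PRE2* (YPR103W), which encodes the subunit with the chymotrypsin-like site, had 112, 95 and 92 counts in the UT IP and 155, 116 and 147 in the Dhh1 IP, likewise without overlap, and a log2 of 0.55 ± 0.20 (edgeR adjusted p = 0.0170). With *PRE6* and *RPN12*, these were the 5 proteasome mRNAs that missed an FDR of 1% in this IP. The enriched sets of the Ccr4 and Dhh1 IPs had *RPN11* and *PUP3* in common, 2 of 4 and 2 of 7, and both sets were measured against the same UT IP libraries.

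In the Puf5 IP no proteasome mRNA reached a 2-fold enrichment, and 28 of 31 had a log2 above 0. The 3 that passed an FDR of 1% were *PRE1*, *RPN9* and *RPN7*. *PRE1* (YER012W), a beta ring subunit, had 87, 68 and 77 counts in the UT IP and 167, 106 and 166 in the Puf5 IP, a log2 of 0.92 ± 0.23 (edgeR adjusted p = 0.00221). *RPN9* had 119, 60 and 136 counts in the Puf5 IP, replicate 2 being close to the UT IP, and a log2 of 0.90 ± 0.26 (edgeR adjusted p = 0.00694). *RPN7* (YPR108W) of the lid had 95, 61 and 86 counts in the UT IP and 154, 141 and 148 in the Puf5 IP, a log2 of 0.88 ± 0.20 (edgeR adjusted p = 0.00116). All 3 missed the threshold without UT IP replicate 2, and of the 3 *RPN7* alone passed it without Puf5 IP replicate 1 or replicate 3. Without Puf5 IP replicate 2, *PRE1* and *RPN9* also passed the 2-fold criterion.

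The lowest value in the Puf5 IP was that of *RPT3*, which had 96, 114 and 115 counts and was below every UT IP library as a share of the library total. Its log2 of -0.40 ± 0.21 did not pass the threshold with library totals (edgeR adjusted p = 0.122). With TMM factors, thus relative to the typical RNA, *RPT3* was lower than in the UT IP, at a log2 of -0.97 (edgeR adjusted p = 0.000438). The same held in the Ccr4 IP (-0.92, edgeR adjusted p = 0.000357), where its log2 with library totals was 0.22. *RPT5* (YOR117W), also an ATPase of the base, had 142, 111 and 139 counts in the UT IP and 115, 95 and 162 in the Puf5 IP, which overlapped, and a log2 of -0.07 ± 0.20.

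**Figure D2:**
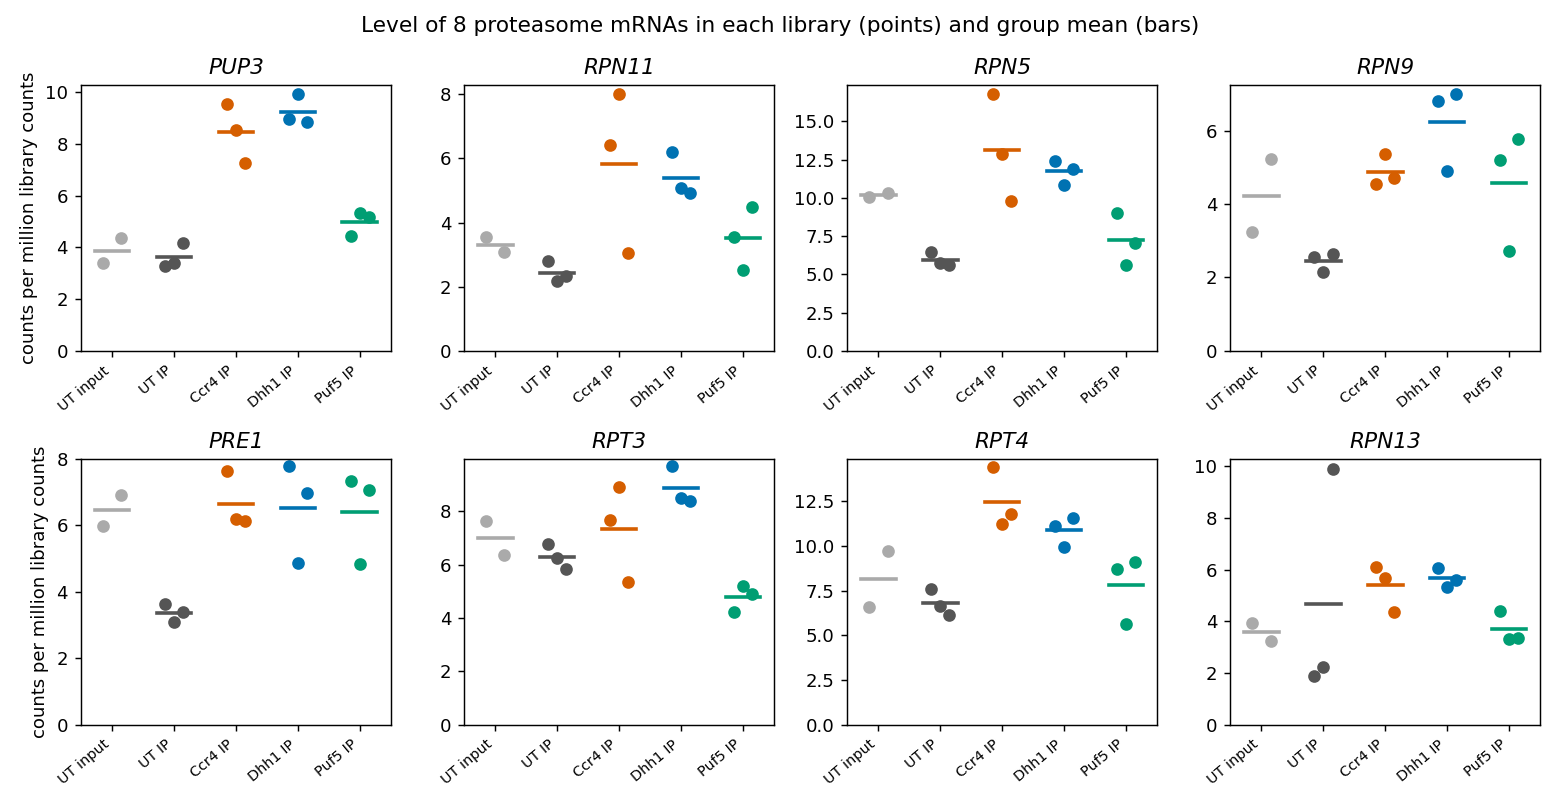
CPM, the counts scaled by the library total (y axis, from 0), of 8 proteasome mRNAs in each library (points, with the group mean as a bar) of the UT input, the UT IP and the 3 tagged IPs. *PUP3* is clearly above the UT IP and the UT input in all Ccr4 and Dhh1 IP libraries, and the UT IP mean of *RPN13* includes 1 library of 225 counts.

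The median recovery was also calculated for each sub-complex, and the differences between sub-complexes were not tested. Against the UT IP, where all mRNAs had medians of 1.24, 0.94 and 0.61, the lid mRNAs had medians of 0.99, 1.02 and 0.41 in the Ccr4, Dhh1 and Puf5 IPs (n = 8), and the base mRNAs medians of 0.63, 0.62 and 0.20 (n = 10). The alpha ring mRNAs had medians of 0.70, 0.88 and 0.38 (n = 7) and those of the beta ring 0.71, 0.94 and 0.41 (n = 6), the last equal to that of the lid. Within the base, the 6 Rpt ATPase mRNAs had a median of 0.53 in the Ccr4 IP, with 3 above the UT IP at an FDR under 1% (*RPT1*, *RPT4* and *RPT5*). Of the 8 lid mRNAs 7 were above it, all but *RPN12*, where 68.5% of all RNAs were, and with TMM factors or mRNA totals none of either group was higher. Measured against the UT input instead, the lid medians became 0.28, 0.24 and -0.14, and the base medians 0.48, 0.42 and -0.08, with 0.79, 0.53 and 0.19 for all mRNAs, so the order of lid and base was turned in all 3 IPs.

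The UT IP itself differed from the input in the same way. The median log2 of the UT IP over the UT input was -0.63 for the lid mRNAs and -0.22 for the base mRNAs, with -0.39 for all 31 and -0.40 for all mRNAs. *RPN8* (YOR261C) had 177 and 211 counts in the UT input and 106, 112 and 86 in the UT IP and was the only proteasome mRNA called, at a log2 of -1.06 ± 0.24 (edgeR adjusted p = 0.00482), where 3.16% of the RNAs were lower in the UT IP. *RPN7* was at -0.87 and *PRE1* at -0.93, both short of the threshold. The call on *RPN8* did not hold with TMM factors, or without UT IP replicate 1, UT IP replicate 3 or either input library. Of the enriched mRNAs, only *PUP3* and *RPN10* were enriched over the input as well. *PUP3*, with 69 and 93 counts in the UT input, had log2 values over it of 1.12 ± 0.23 and 1.25 ± 0.23 in the Ccr4 and Dhh1 IPs (edgeR adjusted p = 0.000411 and 0.000678). *RPN10*, with 68 and 88 counts in the input, was at 1.02 ± 0.25 in the Dhh1 IP (edgeR adjusted p = 0.00790).

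The factors were then compared with each other directly. The UT IP is not a side of these comparisons, but its libraries entered the estimate of spread behind the p-values. Between the Ccr4 IP and the Dhh1 IP no proteasome mRNA differed at an FDR under 1% with edgeR, although 5.89% of all RNAs did, and 1 had an unadjusted p under 0.05. DESeq2 called 1 (background 10.6%), *PRE7*, a beta ring mRNA, at a log2 of -0.70 (DESeq2 adjusted p = 0.00937). The log2 of the Ccr4 IP over the Dhh1 IP had a median of -0.08 for the proteasome mRNAs and of 0.25 for all mRNAs, and 20 of the 31 values were below 0. With TMM factors all 31 were below 0, with a median of -0.29 against 0.03 for all mRNAs, and 15 had an unadjusted p under 0.05.

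With library totals all 31 mRNAs had a lower value in the Puf5 IP than in the Ccr4 IP, though with TMM factors 22 of them had a higher one. All 31 also had a lower value than in the Dhh1 IP with library totals, and 26 did with TMM factors. The median of all mRNAs was likewise lower in the Puf5 IP with library totals, at -0.56 against Ccr4 and -0.34 against Dhh1. With TMM factors these medians were -0.02 and -0.01. Against the Ccr4 IP, 4 were lower at an FDR under 1% (background 23.7%), and for 12 every Puf5 IP library was below every Ccr4 IP library (background 48.5%). The 4 were *RPN5*, *PUP3*, *RPT4* and *RPN2*. *RPN5* had 206, 123 and 165 counts in the Puf5 IP, below the 217 to 385 of the Ccr4 IP, and a log2 of -0.86 ± 0.21 (edgeR adjusted p = 0.00173). *PUP3* had 101, 117 and 122 counts, well below the Ccr4 IP, and a log2 of -0.76 ± 0.20 (edgeR adjusted p = 0.00309). *RPT4* (YOR259C) had 331, 243 and 262 counts in the Ccr4 IP and 199, 124 and 214 in the Puf5 IP, a log2 of -0.67 ± 0.20 (edgeR adjusted p = 0.00760). *RPN2* (YIL075C), a large scaffold of the base, had 700, 514 and 510 counts in the Ccr4 IP and 430, 377 and 407 in the Puf5 IP, a log2 of -0.53 ± 0.16 (edgeR adjusted p = 0.00771). The median over the 31 was -0.39 and over all mRNAs -0.56, so the proteasome mRNAs were less far below the Ccr4 IP than the median mRNA, and with TMM factors their median was 0.17. The number called was 0 without Ccr4 IP replicate 1, 1 without Ccr4 IP replicate 2 or Puf5 IP replicate 2, 2 without Dhh1 IP replicate 3 or Puf5 IP replicate 1 and 11 without Ccr4 IP replicate 3.

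Against the Dhh1 IP, 2 proteasome mRNAs were lower in the Puf5 IP (background 1.91%), and for 25 of the 31 the libraries did not overlap (background 33.2%). *PUP3* had a log2 of -0.89 ± 0.20 (edgeR adjusted p = 0.00389) and *RPT3* one of -0.89 ± 0.21 (edgeR adjusted p = 0.00600). The median over the 31 was -0.48, against -0.34 for all mRNAs, and with TMM factors -0.16 against -0.01, where neither was called. Leaving out Dhh1 IP replicate 1, 2 or 3 or Puf5 IP replicate 1 or 3 removed both calls, and leaving out Puf5 IP replicate 2 removed 1 of them. The comparisons with the Ccr4 IP and with the Dhh1 IP use the same Puf5 IP libraries.

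Enrichment was lower for mRNAs with more counts in the input, and the proteasome mRNAs lay at the high end. When the mRNAs were put into 5 bins of equal size by CPM in the UT input, which do not take transcript length into account, 21 proteasome mRNAs fell in the highest bin and 10 in the next. The median of the highest bin was 0.67, 0.66 and 0.39 in the Ccr4, Dhh1 and Puf5 IPs, against 1.56, 1.09 and 0.74 in the lowest bin. The 21 proteasome mRNAs of the highest bin had medians of 0.74, 0.84 and 0.31. The 10 in the next bin had medians of 0.68, 0.69 and 0.32 where the bin had 1.12, 0.90 and 0.60. Set against the median of its own bin, 16, 20 and 7 of the 31 were above it. The highest bin spanned 5.5 to 940 CPM, and the proteasome mRNA with the most counts in it, *RPN1*, had 24.8. Its median therefore also covers mRNAs with far more counts than the proteasome mRNAs had. The spread within the highest bin, an SD of 0.62, 0.35 and 0.52, was larger than that of the proteasome mRNAs.

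**Figure D3:**
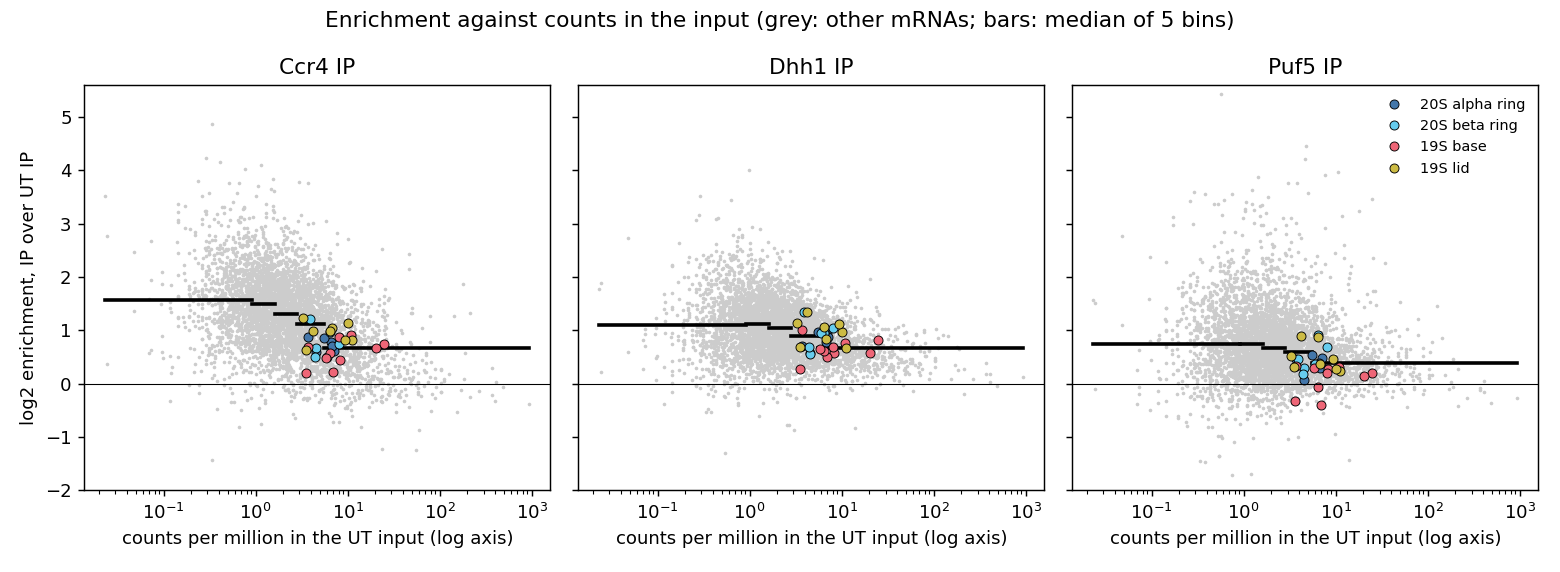
Log2 enrichment over the UT IP with library totals (y axis) against CPM in the UT input (x axis, log scale) for the mRNAs tested (grey) and the 31 proteasome mRNAs (coloured by sub-complex). Black bars are the medians of 5 bins of equal size, which fall from 1.56 to 0.67 in the Ccr4 IP. The proteasome mRNAs of the highest bin lie around its bar, and the median of those in the next bin is below its bar in each IP.

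Other gene groups for large complexes stood elsewhere on the same scale. The 53 mRNAs of small ribosomal subunit proteins had medians of 0.12, 0.62 and 0.44 in the Ccr4, Dhh1 and Puf5 IPs, with SDs of 0.52, 0.39 and 0.60. The 32 mRNAs of large subunit proteins of the mitochondrial ribosome had medians of 1.61, 1.26 and 0.86. The proteasome mRNAs were between these groups in the Ccr4 and Dhh1 IPs and below both in the Puf5 IP. The differences between the groups were not tested.

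The counts per segment, with each transcript divided by length into 3, showed where on the proteasome mRNAs the reads lay. In the UT IP 27.6% ± 1.82 of their counts were in the 3′ segment (SD, n = 3). This share was 37.6% ± 0.604, 37.8% ± 0.235 and 38.5% ± 0.769 in the Ccr4, Dhh1 and Puf5 IPs, above every UT IP library. The UT input libraries had 35.2% and 35.4%. Over all mRNAs the shares were 29.8% in the UT IP, 38.5%, 35.6% and 40.4% in the 3 tagged IPs. By segment, the median log2 enrichment of the proteasome mRNAs was 0.54, 0.63 and 0.04 in the 5′ segment and 1.14, 1.33 and 0.83 in the 3′ segment in the Ccr4, Dhh1 and Puf5 IPs. All mRNAs had medians of 1.03, 0.79 and 0.33 in the 5′ segment and 1.42, 1.14 and 0.90 in the 3′ segment, so the proteasome mRNAs were above them only in the 3′ segment of the Dhh1 IP.

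The log2 enrichment of the 3′ segment minus that of the 5′ segment had a median of 0.74, 0.68 and 0.91 over the 31 mRNAs, and of 0.41, 0.38 and 0.62 over all mRNAs tested. It was above 0 for 25, 27 and 27 of the 31, and for 2912 of 4082, 2808 of 3931 and 2973 of 3727 of all mRNAs tested. By edgeR's test of the interaction of segment and group, with an FDR under 5%, 1, 6 and 3 proteasome mRNAs had a more enriched 3′ segment in the Ccr4, Dhh1 and Puf5 IPs, against a background of 1.94%, 2.62% and 9.47%. None had a more enriched 5′ segment. The mRNAs of the Rpt ATPases had the smallest differences, with medians of 0.08, 0.23 and 0.22, and the alpha ring mRNAs had 0.88, 0.81 and 0.85.

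*RPN1* (YHR027C), which encodes the other large scaffold of the base, was called in all 3 IPs. Its 3′ segment had 143, 108 and 123 counts in the UT IP and 363, 395 and 268 with Ccr4, 542, 295 and 256 with Dhh1 and 201, 198 and 248 with Puf5. Its 5′ segment had 174, 143 and 143 counts in the UT IP and 228, 186 and 132, 234, 173 and 160, and 120, 120 and 149 counts in the 3 tagged IPs. The counts of the 3′ segment thus separated from the UT IP in every library, while the raw counts of the 5′ segment overlapped it in each IP. As a share of the library total, the 5′ segment was above every UT IP library in the Dhh1 IP. It overlapped the UT IP in the Ccr4 and Puf5 IPs. The difference between the ends was 1.22 ± 0.25, 1.19 ± 0.22 and 1.03 ± 0.27 (edgeR adjusted p = 0.0178, 0.00216 and 0.0130).

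*RPN2* was called in the Dhh1 and Puf5 IPs. It had 67, 74 and 79 counts in the 3′ segment in the UT IP, 192, 178 and 162 in the Dhh1 IP and 131, 117 and 162 in the Puf5 IP, and in the 5′ segment 151, 148 and 131, 201, 173 and 157, and 139, 124 and 138. The differences were 0.96 ± 0.24 and 0.98 ± 0.29 (edgeR adjusted p = 0.0245 and 0.0312). *RPN5* had 60, 38 and 34 counts in the 3′ segment in the UT IP and 141, 118 and 119 in the Dhh1 IP, while its 5′ segment had 58, 48 and 61 against 65, 59 and 58. Its difference in the Dhh1 IP was 1.39 ± 0.34 (edgeR adjusted p = 0.0181).

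*PUP2* (YGR253C), an alpha ring subunit, had only 9, 12 and 7 counts in the 3′ segment in the UT IP, against 65, 38 and 61 in the Dhh1 IP, and a difference of 1.81 ± 0.47 (edgeR adjusted p = 0.0213). Its 3′ segment had 35 and 112 counts in the UT input libraries, on either side of the Dhh1 IP libraries. *PRE10* and *PUP3* were also called in the Dhh1 IP, at 1.53 and 1.47. *PRE1* was called in the Puf5 IP, where its 3′ segment had 87, 42 and 65 counts and its 5′ segment 24, 12 and 25, against 19, 8 and 35 and 21, 21 and 20 in the UT IP. Its difference was 1.74 ± 0.56 (edgeR adjusted p = 0.0414).

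The difference between the ends depended on the reference. With the UT input as reference no proteasome mRNA was called in any IP, and the median difference was 0.24, 0.01 and 0.13, where all mRNAs had 0.14, 0.10 and 0.33. *RPN1* was then at 0.64, 0.62 and 0.45, *PRE1* in the Puf5 IP at 1.52 and *PUP2* in the Dhh1 IP at -0.89. With TMM factors within each segment no proteasome mRNA was called either, and their medians were 0.34, 0.33 and 0.31 against 0.02 to 0.03 for all mRNAs. With 1 library left out at a time, the count of 6 in the Dhh1 IP was 1 to 7 (1 without Dhh1 IP replicate 1 or 3, 2 without Dhh1 IP replicate 2 or UT IP replicate 3) and that of 3 in the Puf5 IP 0 to 4 (0 without Puf5 IP replicate 3, 1 without Puf5 IP replicate 1 or UT IP replicate 2). *RPN1* was called in the Dhh1 IP with any 1 library left out, but its call in the Ccr4 IP was lost without Ccr4 IP replicate 2, UT IP replicate 1 or UT IP replicate 2, and that in the Puf5 IP without Puf5 IP replicate 3 or UT IP replicate 2. *PRE1* was called only with all libraries or without UT IP replicate 3.

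**Figure D4:**
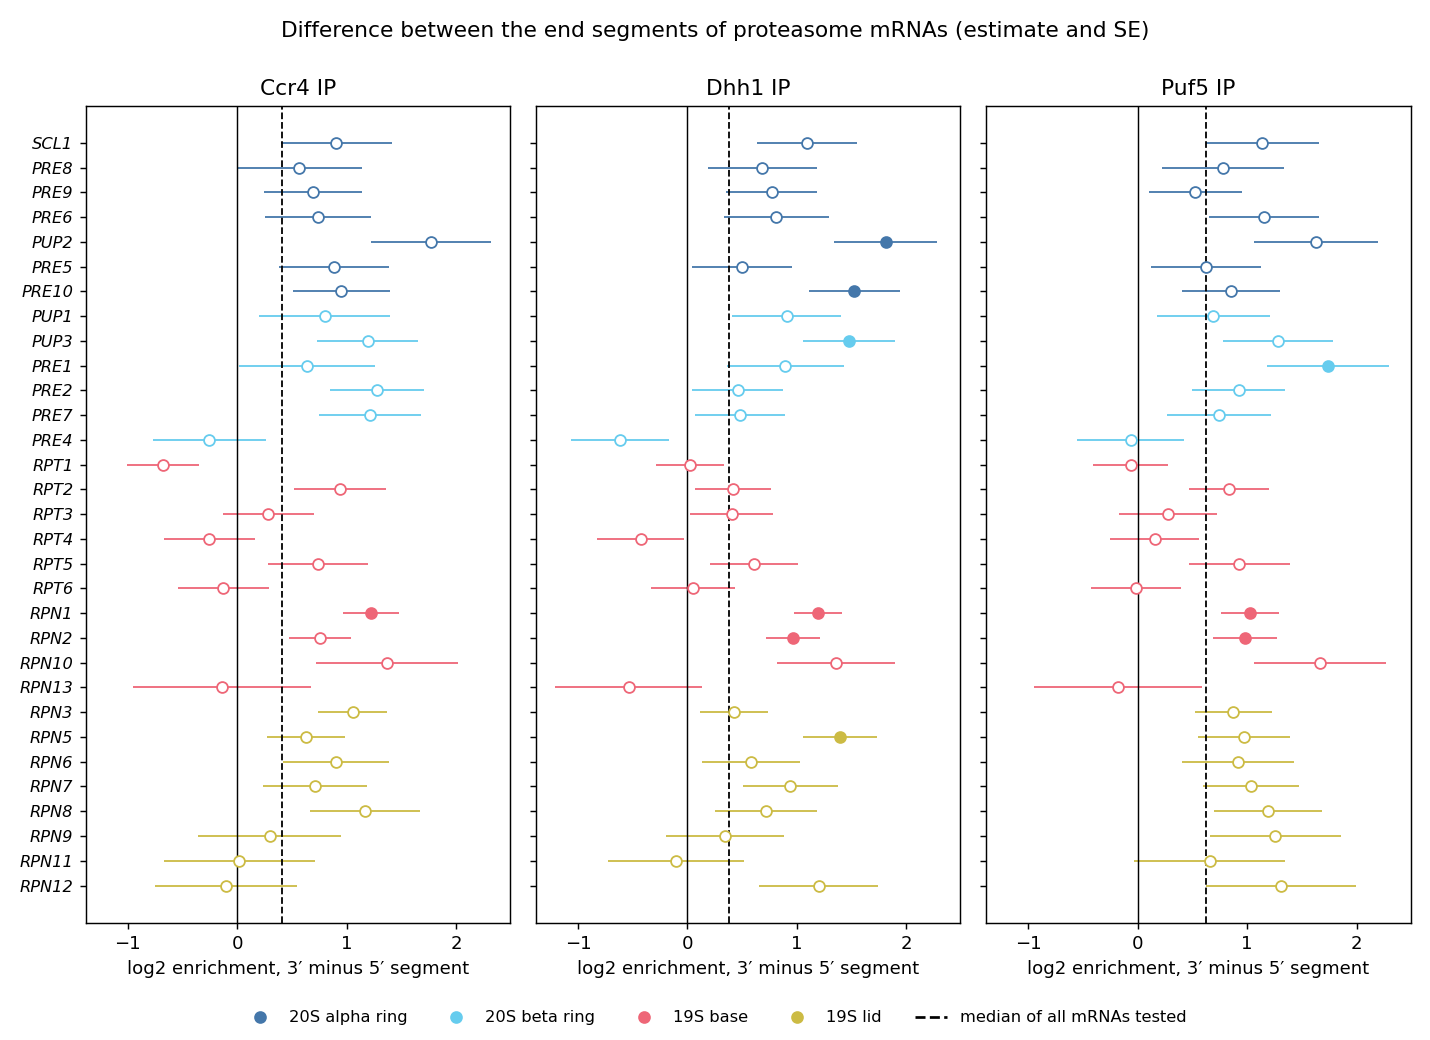
Log2 enrichment over the UT IP of the 3′ segment minus that of the 5′ segment (x axis, estimate and SE) for the 31 proteasome mRNAs (y axis) in each IP. Filled points passed an FDR of 5% and the dashed line is the median of all mRNAs tested. Most points lie right of 0, with medians of 0.74, 0.68 and 0.91 that became 0.24, 0.01 and 0.13 with the UT input as reference.

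**Figure D5:**
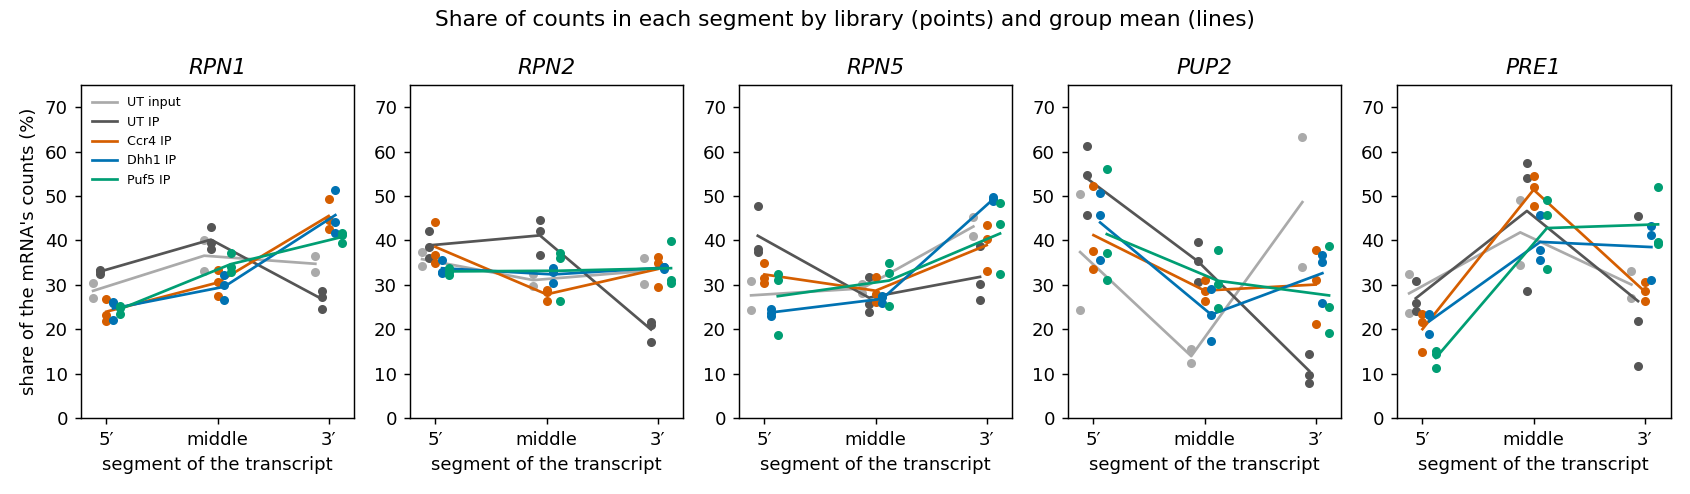
Share of an mRNA's counts in the 5′, middle and 3′ segments (y axis, percent) for 5 proteasome mRNAs in each library (points) with the mean of each group (lines). The UT IP has the lowest mean 3′ share in all 5 panels, and for *RPN1* the tagged IP libraries lie above all UT IP libraries.

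A further list held 27 genes that act with the proteasome, namely *RPN4*, the assembly chaperones, associated regulators, the factors that deliver ubiquitylated proteins, and enzymes of the ubiquitin pathway. Of these 25 were tested, *PBA1* and *UBC5* having too few counts. With library totals 11, 7 and 1 of the 25 were enriched in the Ccr4, Dhh1 and Puf5 IPs, against 57.8%, 37.4% and 17.6% of all RNAs, and none was called lower than in the UT IP. With TMM factors 2, 0 and 0 were higher (background 8.29%, 1.54% and 6.02%) and 7, 4 and 2 lower (12.4%, 4.25% and 4.25%) at an FDR under 1%. Their medians were 1.02, 0.77 and 0.25, against 1.24, 0.94 and 0.61 for all mRNAs, and their SDs of 0.59, 0.40 and 0.36 were larger than those of the subunit mRNAs.

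*RPN4* (YDL020C), which encodes the transcription factor of the subunit genes, had 82, 76 and 52 counts in the UT IP, and 268, 362 and 185, then 172, 142 and 149, then 150, 91 and 137 in the Ccr4, Dhh1 and Puf5 IPs. All tagged libraries were above the UT IP, those of the Ccr4 IP the most. The log2 enrichment was 1.99 ± 0.25, 1.20 ± 0.25 and 0.84 ± 0.25 (edgeR adjusted p = 1.68e-07, 0.000238 and 0.00850), so *RPN4* was above each of the 31 subunit mRNAs in the Ccr4 IP. With TMM factors it was at 0.85 in the Ccr4 IP (edgeR adjusted p = 0.00464), while no subunit mRNA was higher at an FDR under 1%, and at 0.29 and 0.25 in the Dhh1 and Puf5 IPs, where both calls were lost (edgeR adjusted p = 0.424 and 0.486). Its log2 of the Puf5 IP over the Ccr4 IP was -1.14 ± 0.24 (edgeR adjusted p = 0.000436) with library totals and -0.60 with TMM factors, short of the threshold (edgeR adjusted p = 0.0341). The difference between the Ccr4 and Dhh1 IPs, a log2 of 0.79 ± 0.23, missed the threshold with library totals (edgeR adjusted p = 0.0214). It did so with TMM factors as well (0.56, edgeR adjusted p = 0.0638).

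*UMP1* (YBR173C), the maturation factor of the core particle, had 38, 36 and 29 counts in the UT IP, 35, 63 and 53 with Ccr4, 101, 105 and 80 with Dhh1 and 54, 36 and 58 with Puf5. The Dhh1 IP libraries stood apart from all others. The log2 was 1.51 ± 0.29 in the Dhh1 IP (edgeR adjusted p = 9.48e-05), 0.58 in the Ccr4 IP and 0.51 in the Puf5 IP, but with TMM factors the value in the Dhh1 IP was 0.62, short of the threshold (edgeR adjusted p = 0.142). The difference between the Ccr4 and Dhh1 IPs, a log2 of -0.93 ± 0.28, missed the threshold with library totals (edgeR adjusted p = 0.0212) and passed it with TMM factors (-1.13, edgeR adjusted p = 0.00465).

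*POC4* (YPL144W), an assembly chaperone, was the highest of the list in the Ccr4 and Puf5 IPs. It had 13, 11 and 10 counts in the UT IP, 84, 35 and 35 with Ccr4, 26, 31 and 35 with Dhh1 and 35, 32 and 30 with Puf5, all above the UT IP, with log2 values of 2.11 ± 0.40, 1.44 ± 0.41 and 1.44 ± 0.41. With TMM factors none passed the threshold (edgeR adjusted p = 0.0383, 0.327 and 0.0982), and the call in the Puf5 IP was also lost without any one of Puf5 IP replicates 1 and 2 and UT IP replicates 1, 2 and 3. *UBI4* (YLL039C), the polyubiquitin gene, had 181, 88 and 141 counts in the UT IP and 731, 474 and 417 in the Ccr4 IP, against 238, 207 and 212 in the Dhh1 IP and 129, 135 and 145 in the Puf5 IP. Its log2 was 2.02 ± 0.22 with Ccr4 (edgeR adjusted p = 2.03e-08), 0.76 with Dhh1 and 0.01 with Puf5, and the Ccr4 IP exceeded the Dhh1 IP by 1.26 ± 0.21 (edgeR adjusted p = 0.000152). The ubiquitin repeats of *UBI4* also occur in other genes, so its counts may include reads of these.

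The lowest values of the list in the Ccr4 and Dhh1 IPs belonged to the shuttle factors *RAD23* and *DSK2*, which carry ubiquitylated proteins to the proteasome, and in the Puf5 IP to *DSK2* and the ubiquitin ligase *HUL5*. *RAD23* (YEL037C) had 150, 132 and 118 counts in the UT IP, 136, 154 and 136 with Ccr4, 163, 148 and 138 with Dhh1 and 177, 121 and 202 with Puf5, and log2 values of 0.13, 0.24 and 0.32. The Ccr4 and Puf5 IP libraries overlapped the UT IP, and those of the Dhh1 IP were above it as a share of the library total. *DSK2* (YMR276W) had 143, 189 and 143, 181, 197 and 132, 186, 160 and 124, and 131, 161 and 166 counts in the same order, likewise with overlap, and log2 values of 0.14, 0.04 and -0.05. With TMM factors, thus relative to the typical RNA, both were lower than in the UT IP in the Ccr4 and Dhh1 IPs. *RAD23* was then at -0.99 and -0.68 (edgeR adjusted p = 0.000114 and 0.00974), and *DSK2* at -1.004 and -0.88 (edgeR adjusted p = 0.000402 and 0.0043). In the Puf5 IP *RAD23* and *DSK2* were at -0.27 and -0.63, short of the threshold (edgeR adjusted p = 0.275 and 0.0247). *HUL5* (YGL141W) was the lowest in the Puf5 IP, with 55, 38 and 63 counts against 70, 65 and 38 in the UT IP and a log2 of -0.14 ± 0.29.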

How the data were processed

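RNA was sequenced from 3 libraries each of the Ccr4, Dhh1, Puf5 and untagged (UT) IPs, described as biological replicates, and from 2 UT input libraries. The read counts per RNA and per transcript segment were deposited by the authors, who sequenced on a SOLiD 4, trimmed 15 bases from the 3′ end of each read, mapped with SHRiMP to the yeast genome of 2007, dropped reads under 90% of the maximal score and counted reads between published transcript starts and ends. Columns with the authors' own enrichment values were not used. The proteasome genes and all other lists were chosen with earlier results of these data known.

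Counts were tested with edgeR 4.0.16 in R 4.3.3 (quasi-likelihood F test, Benjamini-Hochberg adjustment over all RNAs tested). The 12 IP libraries entered 1 fit with the group as the only term, library totals over all RNAs as library sizes, a prior count of 1 and the count filter filterByExpr. Enriched means an FDR under 1% and a log2 over 1. Direct comparisons used an FDR under 1%, and the UT IP was set against the input in a fit of all 14 libraries. For the ends of the transcripts, counts of the 5′ and 3′ segments with a mean of at least 5 were fitted with a term for the library and an interaction of segment and group, at an FDR under 5%. Names came from RefSeq locus tags, which matched 4791 of 4792 mRNAs. The test steps were tested on simulated data. Figures were drawn with matplotlib 3.10.9.

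Library values are given for the 3 highest and 3 lowest proteasome mRNAs of each IP, those called in the Puf5 IP, in a direct comparison or between the ends (at most 4 for each), *RPN4*, *UMP1*, and the 2 highest and lowest of the associated genes in each IP. Replicates of a group differed by more than sampling noise. Alternatives were TMM factors, mRNA totals, totals without rRNA, DESeq2 1.42.0, other filters, prior counts and thresholds, the UT input as reference, the replicate number as a block, and leaving out each library. Counts above the UT IP without the 2-fold criterion were added to the alternatives after seeing the data.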

Additional observations from a re-analysis of the deposited data

Results flagged for a closer look

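In 6 cases the enrichment of a proteasome mRNA differed between factors by a direct test of the IPs with edgeR, which is the same as the difference of their enrichments over the shared UT IP. The Puf5 IP was below the Ccr4 IP for *RPN5* (log2 -0.86, adjusted p = 0.00173), *PUP3* (-0.76, 0.00309), *RPT4* (-0.67, 0.00760) and *RPN2* (-0.53, 0.00771). It was below the Dhh1 IP for *RPT3* (log2 -0.89, adjusted p = 0.00600) and *PUP3* (-0.89, 0.00389). With TMM factors none of the 6 was called, and *RPN2* was at 0.025.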

How the results depend on the processing

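The choice of library size had the largest effect, since mRNAs made up more of the counts of the tagged IPs than of the UT IP. The median log2 of the proteasome mRNAs in the Ccr4, Dhh1 and Puf5 IPs, 0.73, 0.81 and 0.31 with library totals, was -0.41, -0.13 and -0.28 with TMM factors, -0.032, 0.14 and -0.18 with mRNA totals, -0.044, 0.20 and -0.077 with totals without rRNA, -0.46, -0.14 and -0.31 with DESeq2, and 0.40, 0.38 and -0.057 against the UT input. The numbers enriched in the Ccr4 and Dhh1 IPs, 4 and 7, were 0 and 0 with each of these scalings and with a log2 over 2, and 1 and 2 against the input. The numbers above the UT IP at an FDR under 1%, 23, 26 and 3, were 0, 0 and 0 with TMM factors and with mRNA totals. DESeq2 called 1 mRNA between the Ccr4 and Dhh1 IPs, where edgeR called 0. The 4 calls of the Puf5 IP against the Ccr4 IP became 0 with TMM factors, totals without rRNA and DESeq2, 1 with mRNA totals and 12 at an FDR under 5%, and the 2 against the Dhh1 IP became 0 with all 4 scalings and 8 at an FDR under 5%. The call between the UT IP and the input became 0 with those scalings and 8 at an FDR under 5%. The 1, 6 and 3 calls between the ends became 0, 0 and 0 with TMM factors and against the input, and 0, 1 and 0 at an FDR under 1%.

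Of single mRNAs, *RPN5* in the Ccr4 IP was at -0.014 with TMM factors and -0.064 with DESeq2, *DSK2* there at -1.004 and -1.06, and *RAD23* there at -1.05 with DESeq2. *RPN2* in the Puf5 over the Ccr4 IP was at 0.025 and 0.041 with TMM factors and DESeq2, and the difference between the ends of *PUP2* in the Dhh1 IP at -0.89 against the input. Of 944 alternative values for 53 single results, 696 had the same direction and side of the threshold, 161 no longer passed and 10 newly passed. A further 8 changed sign and passed on either side (those above), and 69 changed sign without passing. For log2 values of a tagged IP over the UT IP, passing here required an FDR under 1% and a log2 beyond 1 in either direction. The 69 therefore include values that were lower at an FDR under 1% alone. Examples are *RPT3* and *RPT2* in the Ccr4 IP with TMM factors (-0.92 and -0.69, edgeR adjusted p = 0.000357 and 0.00127).

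With 1 library left out at a time, the medians ranged over 0.68 to 0.79, 0.71 to 0.85 and 0.22 to 0.40, and the numbers enriched over 3 to 8, 4 to 11 and 0 to 2. The numbers above the UT IP ranged over 16 to 24, 17 to 26 and 0 to 4. Calls ranged over 0 to 0 between the Ccr4 and Dhh1 IPs, 0 to 11 and 0 to 2 for the Puf5 IP against the Ccr4 and Dhh1 IPs, 0 to 1 for the UT IP against the input, and 0 to 1, 1 to 7 and 0 to 4 between the ends. Replicate numbers did not pair the libraries, the correlations of same-numbered deviations being -0.04 to 0.05. With the replicate block 5, 7 and 0 mRNAs were enriched, 1, 6 and 2 were called between the ends, and 0 between the UT IP and the input. Counts of 7 to 12 in an end segment, as for *PUP2* in the UT IP, limit what the test between the ends can show.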
